A study of Mus musculus with 3 samples.

Results

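Rag1, Rag2, Dntt, Vpreb1, Vpreb2, Vpreb3 and Igll1 encode proteins that cut and join immunoglobulin gene segments and proteins made with the first heavy chain of a developing B cell. These 7 V(D)J recombination and pre-B receptor genes were taken by symbol from 30406 gene IDs listed for all 3 libraries of the series. The rule used none of their values, but the genes were chosen with earlier results of these data known. Each was counted as unique molecular identifiers (UMIs, 1 per captured transcript molecule) in barcodes with at least 1 UMI of Cd79a and at least 1 of Cd79b, the signalling chains of the B cell receptor and pre-B receptor. Barcodes are droplets that should each hold 1 cell. They were split by cycling, meaning a UMI of at least 2 of Mki67, Top2a, Birc5 and Ccna2, and by a UMI of Ms4a1, which encodes the B cell surface protein CD20.

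The RAG1 and RAG2 proteins together form the recombinase that cuts DNA beside immunoglobulin V, D and J segments, and terminal deoxynucleotidyl transferase, from Dntt, adds untemplated bases at the joints. A newly made heavy chain pairs with the surrogate light chain, built from a VpreB protein (Vpreb1 or Vpreb2) and lambda5 (Igll1), to form the pre-B receptor, which signals division. In mouse bone marrow the recombinase genes are known to be expressed before and after these divisions, first for the heavy chain and then for the light chain, while Vpreb3 encodes a chaperone-like protein that binds newly made immunoglobulin chains.

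The cells came from intervertebral discs of mice at postnatal day 30, of genotype shh-cre:R26R-tdTomato, with no treatment, and tdTomato-positive cells were enriched by sorting. Cre driven from Shh marks the notochord lineage, from which the nucleus pulposus derives, so B lineage cells are other cells that were present in the sorted suspensions. All 3 libraries belong to 1 group. The labels describe them as replicate sequencing batches of pooled, litter-matched animals, so pool and batch cannot be told apart. The fits hold the library as a block, so p-values rest on how far differences between classes vary from pool to pool. That spread is estimated over all classes together and with information shared among genes, so it is not particular to a comparison. The spread between pools that all classes share is taken out by the block. Whether libraries 2 and 3 shared a sequencing run is not given. The number of animals per pool is not given in the sources used here.

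Total depth was 64695292 UMIs in library 1, 145925353 in library 2 and 137188648 in library 3. Both Cd79 genes were carried by 986, 2724 and 3455 barcodes past the filters, which was 17.5%, 26.7% and 34.9% of all kept barcodes. At least 2 of 7 B lineage marker genes, Ebf1, Pax5 and Blnk among them, were found in 97.8% to 98.4% of them. The 4 nucleus pulposus markers (Krt8, Krt18, Krt19, T) summed to 63.1, 31.5 and 2.75 CPM there (counts scaled to 1000000 UMIs of the barcodes summed), against 5475, 4630 and 4525 CPM for the B lineage markers. Library 3 had 224 barcode sequences in common with library 2, against 24 shared by libraries 1 and 2 and 29 by libraries 1 and 3. Of the 224, 2 lay among the Cd79-positive barcodes of both, and leaving out barcodes found in 2 libraries changed no call of the 7 genes.

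The largest class was non-cycling without Ms4a1 (441, 1075 and 1321 barcodes), followed by cycling without Ms4a1 (337, 1027 and 1157), non-cycling with Ms4a1 (173, 537 and 854) and cycling with Ms4a1 (35, 85 and 123). A class is called Ms4a1-negative where no Ms4a1 UMI was counted, which in a shallow barcode does not show that the cell lacks the transcript. Median UMIs per barcode were 2265, 2708 and 2164 in the non-cycling Ms4a1-negative class and 8843, 10168 and 11519 in the cycling one. Values are therefore given in CPM of a class, per barcode, and as shares of barcodes after each was thinned at random to 2000 UMIs. Those shares keep the classes set before thinning. Fits after thinning use a gate and classes set again from the thinned counts, so they differ from the main fit in more than depth.

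A larger share of cycling barcodes carried many other-lineage transcripts. At least as many UMIs of other-lineage markers as of B lineage markers were found in 10.98%, 9.83% and 11.4% of cycling Ms4a1-negative barcodes and in 2.95%, 3.91% and 2.50% of the non-cycling ones. The share was highest among cycling Ms4a1-positive barcodes, at 22.9%, 27.1% and 18.7%. Such barcodes weigh more in the summed UMIs, of which they held 31.6%, 47.6% and 30.4% in the cycling Ms4a1-positive class. In the Ms4a1-negative classes they held 25.0%, 22.9% and 25.3% with cycling and 14.15%, 14.7% and 11.2% without. The 4 neutrophil precursor genes Elane, Mpo, Prtn3 and Ctsg summed to 6432, 3538 and 7749 CPM in the cycling Ms4a1-negative class and to 1854, 670.0 and 550.1 in the non-cycling one. The summed CPM of the T or NK markers was also higher in the cycling class in 3 of 3 libraries, and those of the neutrophil, chondrocyte, endothelial, plasmacytoid dendritic and plasma cell markers were lower in 3 of 3. Erythroid sums were mixed, but at least 2 of 4 erythroid markers were found in 27.9%, 43.9% and 45.6% of cycling barcodes against 6.58%, 14.1% and 9.77%. By that measure the neutrophil, chondrocyte, endothelial and plasma cell shares were also higher in the cycling barcodes, which were deeper. The fold changes of the 7 genes were also computed without barcodes with at least as many other-lineage as B lineage UMIs, a choice made with the data in view. Detection shares of the 7 genes in the 4 classes moved by less than 1 SD without them in 26 of 28 cases, the exceptions being those of Vpreb3 in the Ms4a1-negative classes. Pairs of genes in the same barcode, likeness of patterns and gene lists are given with them only.

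The transcripts of the 7 genes were concentrated in the Cd79-positive barcodes. They held 92.3% to 98.8% of all UMIs of Rag1, Rag2, Vpreb1, Vpreb2, Vpreb3 and Igll1 in every library, but 71.2%, 84.8% and 86.2% of those of Dntt. Barcodes just outside the gate, with only 1 of the Cd79 genes, held 5.996%, 7.11% and 8.24% of the Dntt UMIs and at most 4.18% of those of any other of the 7 genes. Background from free RNA was read in barcodes with at least 3 of 6 neutrophil genes and outside the gate, whose median depth was 6844.5, 8696 and 8228.5 UMIs. There, Rag1, Rag2 and Vpreb2 were found in at most 0.278% of barcodes, Dntt in at most 1.04%, Vpreb1 in at most 2.09%, Igll1 in at most 2.83% and Vpreb3 in at most 3.95%.

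Over all Cd79-positive barcodes, Vpreb3 was found in nearly every one (94.8%, 95.0% and 93.3% in libraries 1, 2 and 3). A UMI of Vpreb1 was found in 27.8%, 32.4% and 33.9%, and one of Igll1 in 25.2%, 30.7% and 33.5%. Rag1 went the other way across libraries, at 30.5%, 26.6% and 17.2%. Dntt was found in 14.3%, 18.9% and 18.7%, Vpreb2 in 16.2%, 20.1% and 21.7%, and Rag2 in 10.2%, 9.62% and 6.80%. The exact 95% Clopper-Pearson intervals of these single-library shares were at most 5.85 percentage points wide, covering counting error only.

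**Figure D1:**
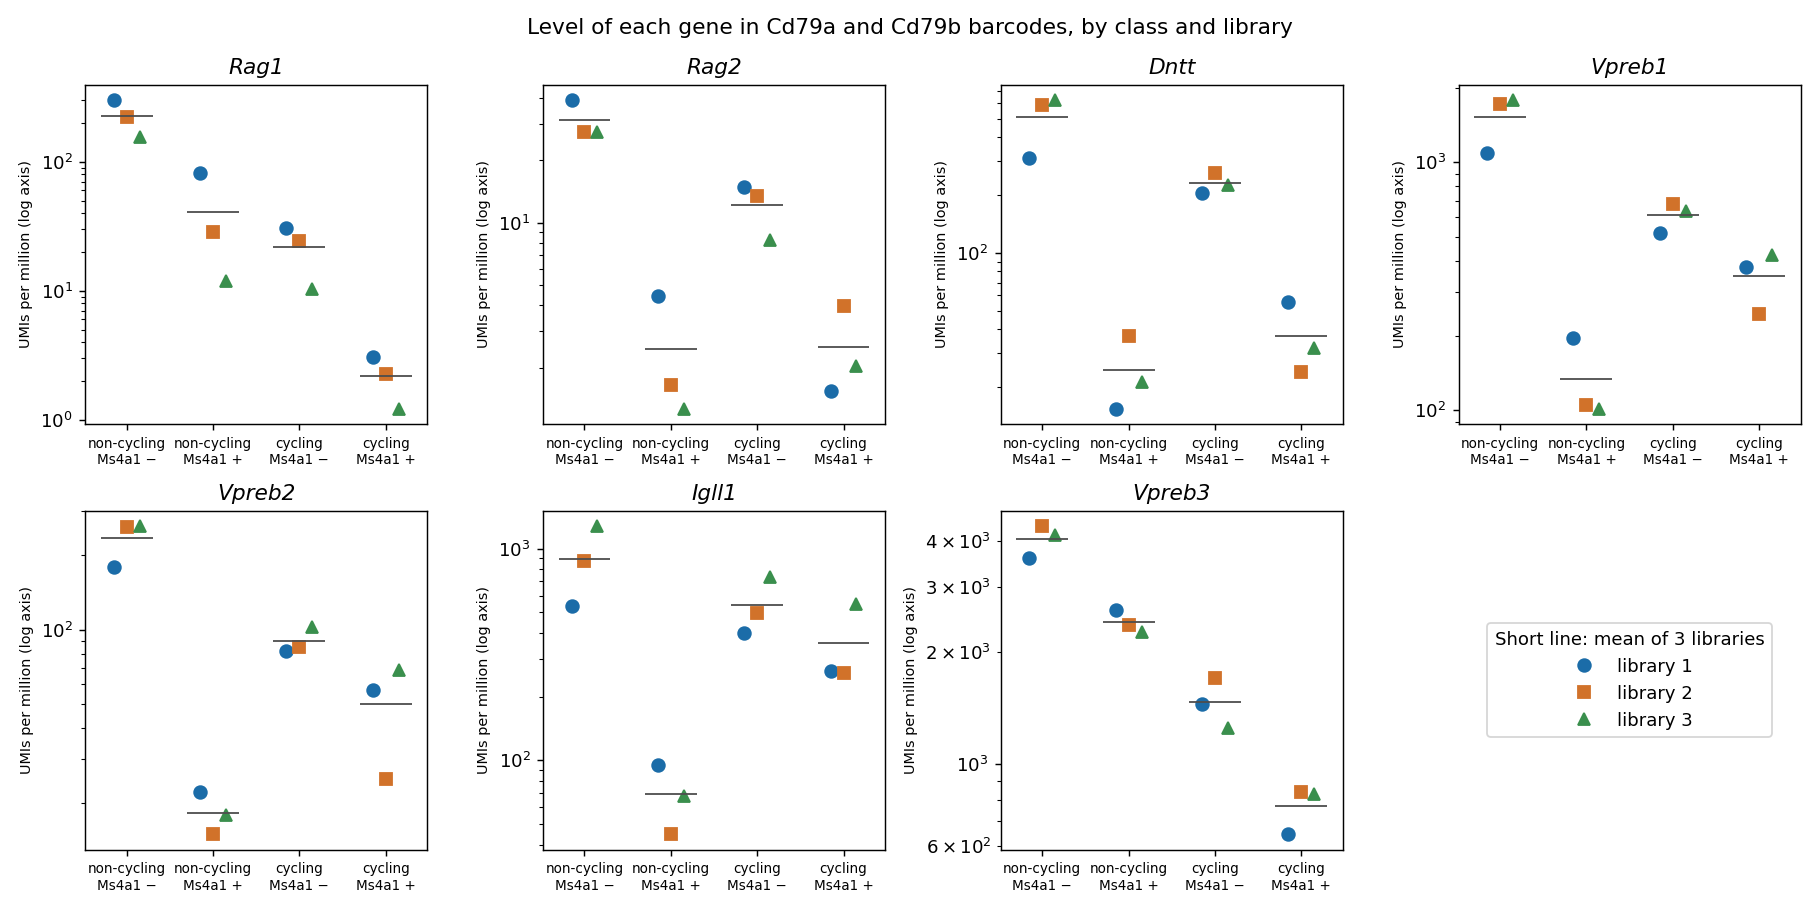
CPM (log axis) of each of the 7 genes in the 4 classes of Cd79-positive barcodes, with 1 marker per library and a short line at the mean of the 3. For every gene the non-cycling Ms4a1-negative class has the highest mean, and Rag1 has the widest spread of means, from 226.3 to 2.19.

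Rag1 was highest in the non-cycling Ms4a1-negative class, at 299.9, 222.9 and 156.2 CPM in libraries 1, 2 and 3 (mean 226.3 ± 71.9 SD, n = 3). The cycling Ms4a1-negative class had 30.8, 24.3 and 10.3 CPM, the non-cycling Ms4a1-positive class 81.6, 28.7 and 11.8, and the cycling Ms4a1-positive class 3.07, 2.27 and 1.22. Every non-cycling Ms4a1-negative value lay above every value of the other classes. The cycling Ms4a1-negative and non-cycling Ms4a1-positive classes overlapped. In all 4 classes library 1 was highest and library 3 lowest, and within each library the classes kept the same order.

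Rag2 lies beside Rag1 and is transcribed in the opposite direction. Rag1 spans chr2:101638282-101649501 on the minus strand of mm10 and Rag2 spans chr2:101624718-101632529 on the plus strand, with 5752 bases between them. Both overlap the annotated gene B230118H07Rik on the minus strand, and strand-specific counting is not stated in the sources used here. Rag2 stood at 38.8, 27.2 and 27.3 CPM in the non-cycling Ms4a1-negative class, from 50, 104 and 106 UMIs. The cycling Ms4a1-negative class had 14.8, 13.5 and 8.28 CPM and did not overlap it. In the Ms4a1-positive classes Rag2 rested on 1 to 7 UMIs per library, at 1.27 to 4.41 CPM.

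Dntt (chr19:41029275-41059525, plus strand) stood at 310.0, 588.9 and 622.1 CPM in the non-cycling Ms4a1-negative class. The cycling Ms4a1-negative class had 205.7, 261.6 and 224.5, which lay below all 3 of these values. The Ms4a1-positive classes had 15.4, 37.0 and 21.1 without cycling and 55.3, 23.9 and 31.8 with it, and these overlapped. Library 1 had the lowest Dntt level in the non-cycling Ms4a1-negative class, where it had the highest Rag1 level.

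The surrogate light chain genes lie close together on chromosome 16. Igll1 spans chr16:16860671-16863985 and Vpreb1 spans chr16:16868403-16870843, both on the minus strand of mm10 with 4417 bases between them, and Vpreb2 lies 1109584 bases further on at chr16:17980428-17981273 on the plus strand. Vpreb1 overlaps Top3b on the opposite strand. The longest protein-coding transcripts of Vpreb1 and Vpreb2, of 766 and 759 bases, were 97.4% identical over 759 aligned columns that reach both 3' ends, the ends this assay reads. How the authors' counting divided reads between the pair is not stated, so their separate values are uncertain.

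The likeness of Vpreb1 and Vpreb2 extends upstream of the RefSeq start of both, which for Vpreb1 is still inside the GENCODE span of the gene. The sequences are shown as a description, and a link between them and the levels of the pair was not tested. In the 250 bases before each RefSeq start (GRCm38.p6), a stretch of 106 bases was shared at 104 positions. It is chr16:16869256-16869361 on the minus strand for Vpreb1, ending at the base before the RefSeq start, and chr16:17980315-17980420 on the plus strand for Vpreb2, upstream of the GENCODE start of that gene. The Vpreb1 stretch overlaps an exon of a non-coding GENCODE transcript of Vpreb1 that starts further upstream. Each is given 5' to 3' on the strand of its gene, with the E-box CAGGTG in capitals:
Vpreb1: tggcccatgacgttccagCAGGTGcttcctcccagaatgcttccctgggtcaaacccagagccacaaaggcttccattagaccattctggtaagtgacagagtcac
Vpreb2: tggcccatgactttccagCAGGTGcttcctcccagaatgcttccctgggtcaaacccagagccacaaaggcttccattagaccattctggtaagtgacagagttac
Counted from 1 at the 5' end, with the base of Vpreb1 first and that of Vpreb2 last, they differ by G12T and C104T. The window of Igll1, chr16:16863986-16864235 on the minus strand, had no such likeness (10 aligned columns) and holds the reverse complement of the same motif, CACCTG in capitals, 8 bases before its start:
Igll1: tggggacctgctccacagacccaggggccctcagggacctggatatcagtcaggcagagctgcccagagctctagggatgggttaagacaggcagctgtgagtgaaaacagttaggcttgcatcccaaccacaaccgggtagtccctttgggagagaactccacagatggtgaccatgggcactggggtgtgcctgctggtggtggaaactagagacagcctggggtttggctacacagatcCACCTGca
CAGGTG was found on either strand in 17.2% of 32851 RefSeq promoter windows of the same length, so the matches describe these windows and do not show a binding site. The other motifs searched on both strands were TCCC and GGGA with any 2 bases between them for EBF1, TGGGAA for Ikaros and TGTTTAC for FOXO, found in 0.779%, 21.6% and 3.17% of windows. No match overlapped another within the windows of the 7 genes. Rag1 had CAGGTG and TGGGAA, Vpreb2 also had TGGGAA, and Rag2, Dntt and Vpreb3 had none of the 4. The TGGGAA match of Vpreb2, on the opposite strand 64 bases before its RefSeq start, lies inside the GENCODE span of that gene.

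Vpreb1 stood at 1091, 1714 and 1776 CPM in the non-cycling Ms4a1-negative class (mean 1527 ± 378.9 SD, n = 3) and at 519.1, 677.2 and 637.9 in the cycling Ms4a1-negative class. The cycling Ms4a1-positive class had 376.4, 244.9 and 423.7, and the non-cycling Ms4a1-positive class 196.4, 104.8 and 101.5. The 4 classes did not overlap, in that order from highest to lowest. Library 1 was lowest in the Ms4a1-negative classes and highest in the non-cycling Ms4a1-positive class.

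Vpreb2 had the same order of class means as Vpreb1. Its levels were 179.5, 258.8 and 261.5 CPM in the non-cycling Ms4a1-negative class, 81.5, 84.7 and 102.2 in the cycling Ms4a1-negative class, 56.8, 25.0 and 68.4 in the cycling Ms4a1-positive class and 22.1, 14.9 and 17.8 in the non-cycling Ms4a1-positive class. These classes did not overlap either.

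Igll1, whose product completes the surrogate light chain, stood at 538.4, 875.4 and 1279 CPM in the non-cycling Ms4a1-negative class. The cycling Ms4a1-negative class had 400.3, 499.3 and 734.3, and the cycling Ms4a1-positive class 264.3, 257.4 and 548.3. These 3 classes overlapped one another, but kept that order within each of the 3 libraries. The non-cycling Ms4a1-positive class had 94.9, 44.7 and 68.1 and lay below all of them. Library 3 was highest for Igll1 in every class but this one.

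Vpreb3 (chr10:75943057-75949657, plus strand, overlapping Gm16221 on the minus strand) was the most evenly spread. Its levels were 3579, 4376 and 4141 CPM in the non-cycling Ms4a1-negative class and 2604, 2367 and 2270 in the non-cycling Ms4a1-positive class. Cycling classes had 1452, 1708 and 1253 without Ms4a1 and 645.3, 839.1 and 827.4 with it. The 4 classes did not overlap.

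The first comparison asked how cycling Ms4a1-negative barcodes differed from non-cycling ones. In CPM, 6 of the 7 genes were lower in cycling barcodes by edgeR's quasi-likelihood test with the library as block and p-values adjusted by Benjamini-Hochberg, where 57.0% of 10643 genes tested were called, 27.7% higher and 29.3% lower. Rag1 fell by 3.29 on the log2 scale (SE 0.20, adjusted p = 7.94e-08), with library values of -3.28, -3.20 and -3.93 before adjustment by the model. The other calls lay close together, at -1.18 for Rag2 (SE 0.18, adjusted p = 0.000148), -1.13 for Vpreb1 (SE 0.25, adjusted p = 0.00182), -1.21 for Vpreb2 (SE 0.20, adjusted p = 0.000288), -1.27 for Vpreb3 (SE 0.11, adjusted p = 1.46e-06) and -0.93 for Dntt (SE 0.24, adjusted p = 0.00611). Igll1 was not called, at -0.52 (SE 0.22, adjusted p = 0.0619), although it was lower in 3 of 3 libraries. Without library 3 the Dntt value was -0.76 (adjusted p = 0.080), and without library 1 Igll1 was called at -0.59 (adjusted p = 0.0116).

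These are shares of the UMIs of a class, and cycling barcodes held more UMIs each. Per barcode, Rag1 was lower in cycling barcodes of every library (0.395, 0.360 and 0.162 UMIs against 0.875, 0.793 and 0.459), and the other 6 genes were higher. Vpreb1 had 6.65, 10.1 and 10.1 UMIs per cycling barcode against 3.18, 6.09 and 5.22, and Igll1 had 5.13, 7.42 and 11.6 against 1.57, 3.11 and 3.76. With sums scaled to the number of barcodes, the median of all genes was higher in cycling barcodes by 1.95 on the log2 scale, and the 7 genes ranged from -1.27 (Rag1) to 1.51 (Igll1), all below that median. Rag1 and Igll1 were the lowest and the highest of the 7 on either scale.

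The B lineage markers moved with these genes, at 3806, 3374 and 3062 summed CPM in cycling Ms4a1-negative barcodes against 10170, 8730 and 9373 in non-cycling ones. Their part in the result was not tested. Without the barcodes that had at least as many other-lineage as B lineage UMIs, the same 6 genes were called, with Rag1 at -3.14, Rag2 at -0.99, Dntt at -0.71, Vpreb1 at -0.90, Vpreb2 at -0.97 and Vpreb3 at -1.05, and Igll1 at -0.28 (adjusted p = 0.209). Rag2 was not called when every barcode with 2 markers of another lineage was left out (-0.23, adjusted p = 0.30) or after thinning (-0.30, adjusted p = 0.385). Leaving out barcodes with 2 such markers kept 123, 453 and 402 cycling Ms4a1-negative barcodes.

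**Figure D2:**
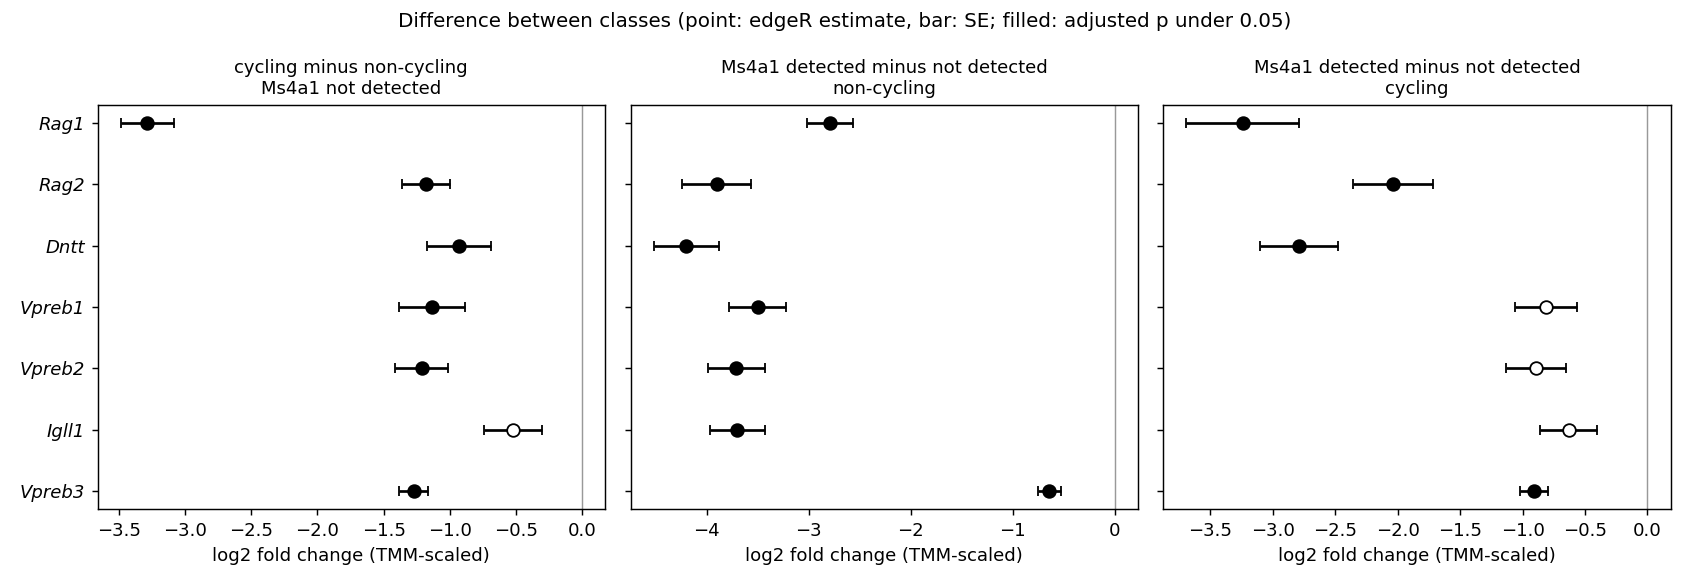
Log2 fold change of each gene from edgeR (points) with its SE (bars) for cycling against non-cycling barcodes without Ms4a1, and for barcodes with against without Ms4a1 in the non-cycling and in the cycling classes, scaled by TMM; filled points have an adjusted p under 0.05. Rag1 stands apart in the first comparison at -3.29, and Vpreb1, Vpreb2 and Igll1 are between -3.71 and -3.50 in non-cycling barcodes and between -0.89 and -0.63 in cycling ones.

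The second comparison set non-cycling barcodes with Ms4a1 against those without. All 7 genes were lower with Ms4a1, where 14.6% of 10643 genes were called, 7.53% higher and 7.06% lower. Dntt fell by 4.20 (SE 0.32, adjusted p = 4.26e-06), Rag2 by 3.90 (SE 0.34, adjusted p = 1.17e-05), Vpreb2 by 3.71 (SE 0.28, adjusted p = 3.98e-06), Igll1 by 3.70 (SE 0.27, adjusted p = 3.45e-06), Vpreb1 by 3.50 (SE 0.28, adjusted p = 6.43e-06) and Rag1 by 2.79 (SE 0.23, adjusted p = 8.5e-06) in edgeR's test with the same adjustment. Vpreb3 fell by 0.64 (SE 0.11, adjusted p = 0.00169). The classes had similar depth (medians of 2110, 2593 and 2271.5 UMIs with Ms4a1) and similar summed B lineage markers (11600, 8398 and 9630 CPM with Ms4a1).

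Library 1 had the smallest difference for every gene but Dntt, and all 7 genes were called without any 1 library. Vpreb1 differed by -2.47 in library 1 and by -4.03 and -4.13 in libraries 2 and 3, and Igll1 by -2.50, -4.29 and -4.23. Rag1 differed by -1.88, -2.96 and -3.72. For Rag2 the Ms4a1-positive sums held 2, 3 and 3 UMIs, so the ratios to the Ms4a1-negative level were 0.114 (95% exact counting interval 0.0134 to 0.432), 0.0608 (0.0123 to 0.183) and 0.0465 (0.00943 to 0.140). With other-lineage barcodes left out, all 7 genes were called, from -0.70 for Vpreb3 to -4.24 for Dntt.

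Few non-cycling Ms4a1-positive barcodes carried these transcripts. Vpreb1 was found in 5.202%, 3.17% and 2.58% of them and Igll1 in 3.47%, 2.24% and 1.99%. The neutrophil background had 0.909%, 2.09% and 2.04% for Vpreb1 and 0.420%, 1.86% and 2.83% for Igll1, at median depths of 6844.5, 8696 and 8228.5 UMIs against 2110, 2593 and 2271.5. With both thinned to 2000 UMIs a barcode, Vpreb1 was found in 7.45%, 2.42% and 2.88% against 0.0748%, 0.0476% and 0.389% in that background. The thinned Igll1 shares were 5.32%, 1.98% and 2.54% against 0.0748%, 0.429% and 0.876%, so both genes lay above the background in every library at equal depth. Without thinning, Rag1 was found in 12.1%, 6.33% and 2.69%, against 0.0699%, 0.136% and 0.278% in that background. Vpreb3 was found in 89.6%, 88.8% and 87.2%.

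A further comparison made the same contrast in cycling barcodes. Rag1 fell by 3.24 (SE 0.45, adjusted p = 0.00145), Dntt by 2.79 (SE 0.31, adjusted p = 0.000299), Rag2 by 2.04 (SE 0.32, adjusted p = 0.00355) and Vpreb3 by 0.91 (SE 0.11, adjusted p = 0.000615) by edgeR's test, where 3.77% of 10643 genes were called, 1.88% higher and 1.89% lower. The Rag1 values rest on 2, 4 and 3 UMIs in the Ms4a1-positive sums, and the Rag2 values on 1, 7 and 5. Without library 3 the Rag2 value was -2.02 (adjusted p = 0.0523), and with other-lineage barcodes left out it was -1.86 and called. Rag1 was then at -3.47, Dntt at -2.58 and Vpreb3 at -0.85, all called.

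The surrogate light chain genes were not called there. Vpreb1 stood at -0.81 (SE 0.25, adjusted p = 0.112), Vpreb2 at -0.89 (SE 0.24, adjusted p = 0.059) and Igll1 at -0.63 (SE 0.23, adjusted p = 0.185), each lower in 3 of 3 libraries. Per barcode, Vpreb1 had 7, 5.07 and 8.46 UMIs in cycling Ms4a1-positive barcodes, against 0.515, 0.354 and 0.281 in non-cycling Ms4a1-positive ones. Cycling Ms4a1-positive barcodes were deeper than cycling Ms4a1-negative ones (medians of 16979, 13478 and 17637 UMIs) and had the highest share of other-lineage barcodes, whose part was not tested beyond leaving them out. Vpreb2 was then called at -0.84 (adjusted p = 0.0366), with Vpreb1 at -0.72 and Igll1 at -0.52 still not called.

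The change in the Ms4a1 effect between non-cycling and cycling barcodes was tested as an interaction. It was called for Vpreb1 at 2.69 (SE 0.37, adjusted p = 0.00535), Vpreb2 at 2.82 (SE 0.37, adjusted p = 0.00466) and Igll1 at 3.06 (SE 0.34, adjusted p = 0.00222), where 1.08% of 10643 genes were called by edgeR, 0.686% higher and 0.395% lower. It was not called for Rag2 (1.87, adjusted p = 0.178), Dntt (1.41, adjusted p = 0.187), Rag1 (-0.45, adjusted p = 0.842) or Vpreb3 (-0.27, adjusted p = 0.519). None of the 3 calls held without library 3, where Vpreb1 was at 2.33 (adjusted p = 0.179), Vpreb2 at 2.51 (adjusted p = 0.203) and Igll1 at 2.71 (adjusted p = 0.116), with 4 genes called in all. With no library block Vpreb1 was called at 2.66 (adjusted p = 0.0475), and Vpreb2 at 2.79 (adjusted p = 0.0579) and Igll1 at 3.05 (adjusted p = 0.117) were not. After thinning, classes were set again from the thinned counts, and the cycling Ms4a1-positive class had sums in 2 libraries. Vpreb1 was then at 2.69 and Igll1 at 3.56, both called, and Vpreb2 was at -3.45 (adjusted p = 0.891) with a sum of 0 UMIs. With other-lineage barcodes left out the values were 2.97, 3.02 and 3.39, all called, and Dntt was called too at 1.65 (adjusted p = 0.0214). The comparisons share sums, since each Ms4a1-negative class enters the cycling comparison and 1 of the Ms4a1 comparisons.

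Levels in CPM do not say how many barcodes carry a transcript. Rag1 was found in 44.2%, 43.4% and 32.5% of non-cycling Ms4a1-negative barcodes and in 24.6%, 21.7% and 12.2% of cycling ones, although the latter were deeper. Vpreb1 went the other way, from 20.4%, 26.8% and 27.8% to 48.4%, 53.6% and 62.8%. Igll1 was found in 23.2% ± 5.201 (mean ± SD, n = 3) of non-cycling and 53.4% ± 9.09 of cycling barcodes, Vpreb2 in 17.8% ± 4.18 and 31.5% ± 5.72, Rag2 in 8.56% ± 1.33 and 14.3% ± 2.69, and Dntt in 19.7% ± 5.28 and 25.2% ± 2.64.

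Equal depth changed part of this. After thinning, Rag1 was found in 32.0% ± 3.83 of non-cycling and 7.15% ± 2.76 of cycling Ms4a1-negative barcodes, a wider ratio than before. Vpreb1 was found in 24.6%, 29.4% and 38.6% against 33.5%, 39.4% and 46.9%, and Igll1 in 21.4%, 28.1% and 37.4% against 33.5%, 36.2% and 48.5%. Both stayed more frequent in cycling barcodes of every library while their CPM was lower there. The means of Vpreb2, Rag2 and Dntt, each higher in cycling barcodes before thinning, turned. Vpreb2 turned in 3 of 3 libraries, to 20.3% ± 5.41 without cycling against 11.3% ± 2.53 with it. Rag2 turned in libraries 1 and 3 only, to 6.39% ± 1.65 against 4.13% ± 1.012, and Dntt in libraries 2 and 3 only, to 25.0% ± 7.45 against 19.6% ± 1.20. Thinning left out 156, 195 and 510 non-cycling Ms4a1-negative barcodes and 3, 13 and 10 cycling ones that had under 2000 UMIs.

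**Figure D3:**
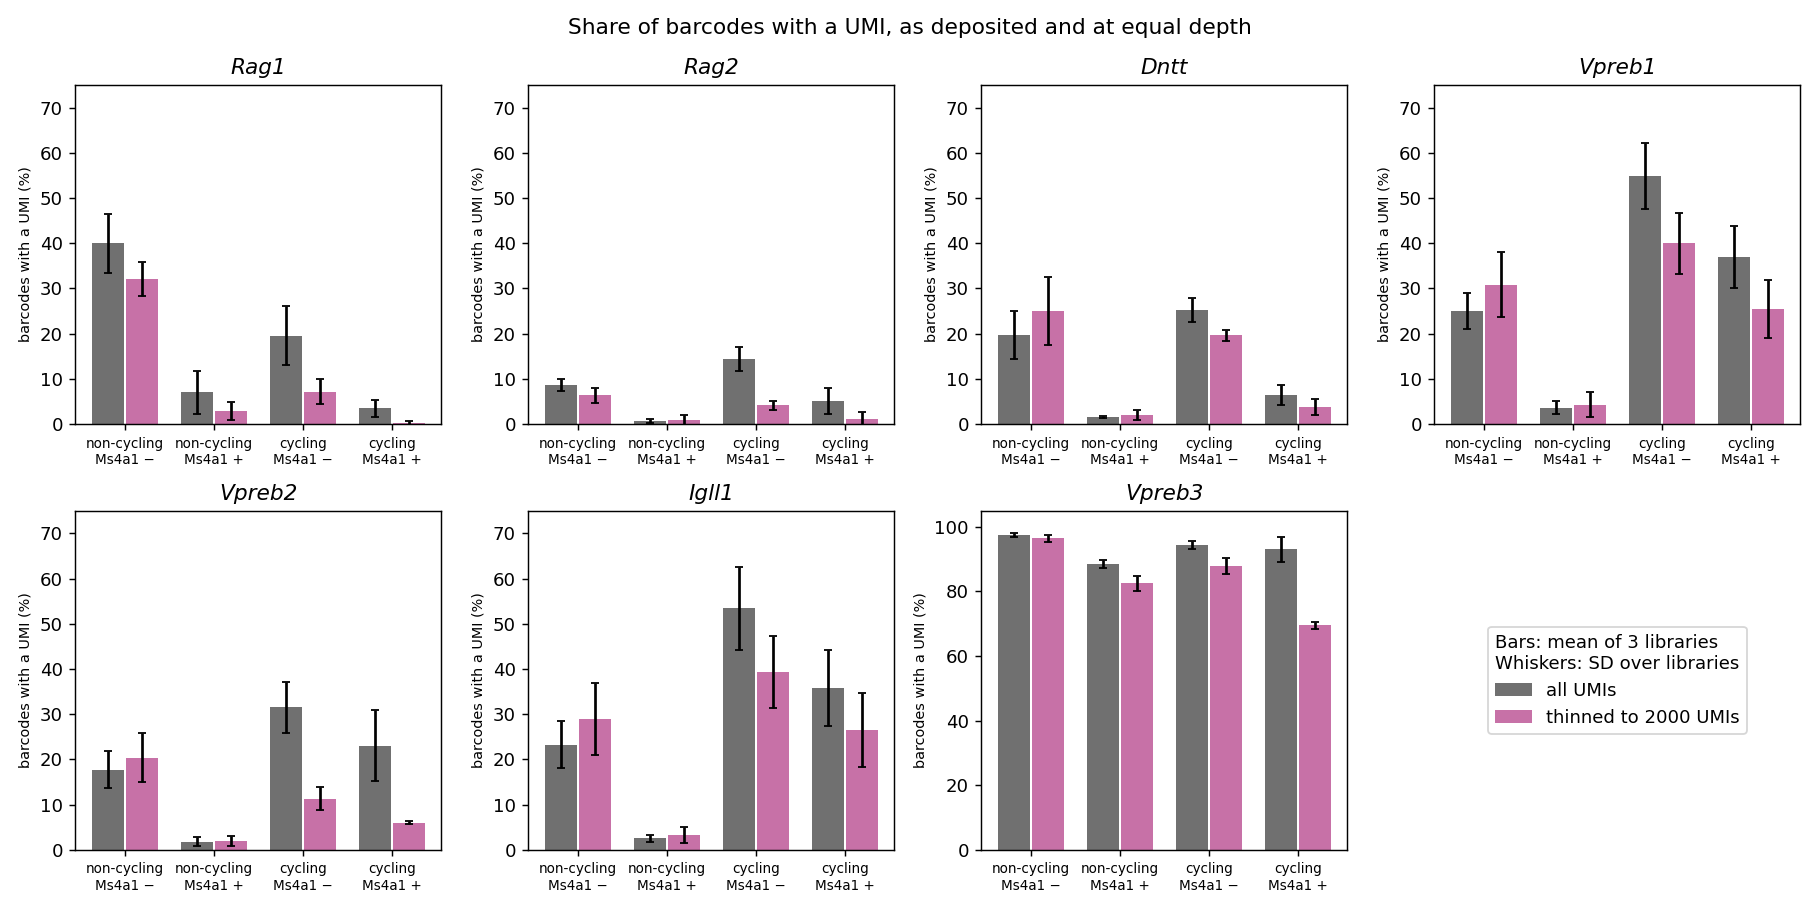
Share of barcodes (%) with at least 1 UMI of each gene in the 4 classes, with all UMIs (grey) and after thinning to 2000 UMIs (pink); bars are means and error bars the SD of 3 libraries. In Ms4a1-negative barcodes, Vpreb1 and Igll1 remain more frequent in the cycling class after thinning, Rag1 remains less frequent, and the means of Vpreb2, Rag2 and Dntt change order.

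In non-cycling Ms4a1-negative barcodes Vpreb1 was mostly either abundant or not detected. Barcodes with Vpreb1 had a median of 15, 23 and 19 Vpreb1 UMIs, and 12.5%, 20.6% and 20.9% of all barcodes of the class had 10 or more. Only 4.08%, 2.51% and 2.95% had exactly 1. Rag1 was spread thinly instead, with a median of 2, 1 and 1 UMIs in the barcodes that had it and exactly 1 UMI in 22.0%, 23.9% and 22.6% of the class.

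Detection of Dntt was nested in that of the surrogate light chain genes. In the non-cycling Ms4a1-negative class, 90%, 95.1% and 97.3% of barcodes with Dntt also had Vpreb1, and 86.7%, 94.7% and 97.3% had Igll1. Conversely, 60%, 81.2% and 79.3% of barcodes with Vpreb1 had Dntt. In the cycling Ms4a1-negative class 92.1%, 96.1% and 97.8% of barcodes with Dntt had Vpreb1, while 42.9%, 45.01% and 43.4% of barcodes with Vpreb1 had Dntt.

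Barcodes with both genes of a pair were set against the product of their separate shares, a ratio that also rises where barcodes differ in depth. In the non-cycling Ms4a1-negative class it was 4.41, 3.55 and 3.50 for Dntt with Vpreb1 and 4.58, 3.45 and 3.38 for Vpreb1 with Igll1. Rag1 was closer to 1, at 1.06, 1.25 and 1.27 with Vpreb1, and at 1.44, 1.31 and 1.21 with Rag2. Rag2 lay between, at 2.34, 2.28 and 1.97 with Vpreb1. With thinned counts the ratio was 3.91, 3.21 and 2.51 for Dntt with Vpreb1, 2.04, 2.04 and 1.43 for Rag2 with Vpreb1, and 1.12, 1.22 and 1.19 for Rag1 with Vpreb1. In the cycling class Rag1 with Vpreb1 had ratios of 0.847, 1.02 and 0.825, and Rag1 with Dntt had 1.66, 1.84 and 1.71.

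**Figure D4:**
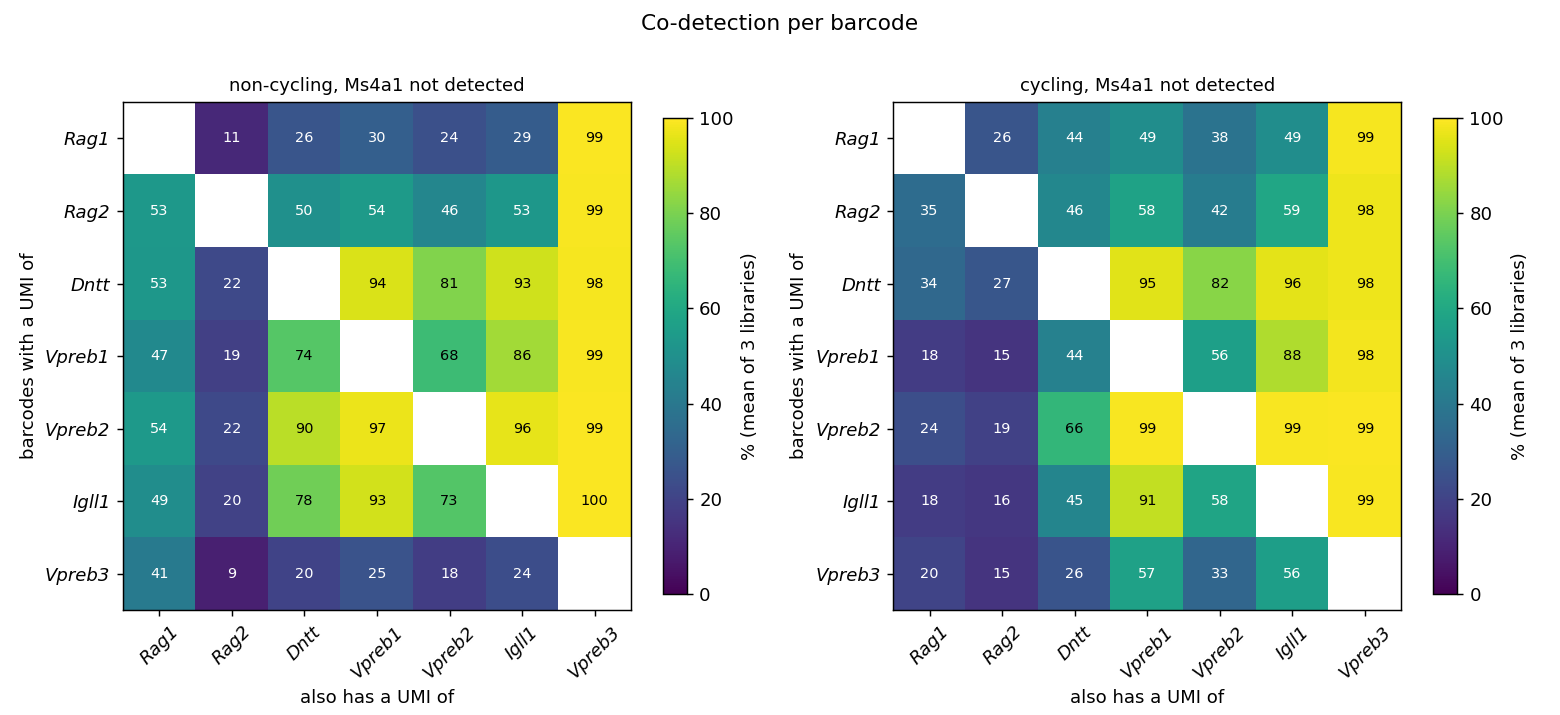
Share (%) of Ms4a1-negative barcodes with the gene of the row that also had the gene of the column, as the mean of 3 libraries, for non-cycling (left) and cycling (right) barcodes. Rows of Dntt and Vpreb2 are high in the columns of Vpreb1 and Igll1. On the left the row of Rag1 is low in every column but that of Vpreb3. On the right the row of Rag1 is higher than on the left in the column of Vpreb1.

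Joined into patterns, where surrogate light chain means Vpreb1 or Igll1 and Rag means Rag1 or Rag2, the non-cycling Ms4a1-negative class fell mainly into 3 detection patterns. No member of either kind and no Dntt was found in 40.6%, 40.4% and 47.9% of barcodes, and Rag alone in 36.7%, 29.9% and 22.2%. Barcodes of this class with Rag1 had a median of only 2, 1 and 1 Rag1 UMIs. A cell with Rag1 transcripts can therefore be missed, and these patterns need not be different cells. All 3 kinds together, surrogate light chain, Rag and Dntt, were found in 8.16%, 14.6% and 12.4%. In cycling Ms4a1-negative barcodes the surrogate light chain alone was the largest set with a detected gene, at 28.8%, 28.1% and 37.2%, against 6.12%, 4.56% and 5.22% without cycling. Rag alone was found there in 17.8%, 12.1% and 7.52%. In cycling Ms4a1-positive barcodes surrogate light chain alone was found in 28.6%, 29.4% and 38.2%, and in non-cycling Ms4a1-positive ones no gene of the 3 kinds was found in 83.2%, 89.6% and 93.4%. Patterns were read from all UMIs without thinning, and cycling barcodes were deeper, so pattern shares of cycling and non-cycling classes are not at equal depth.

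**Figure D5:**
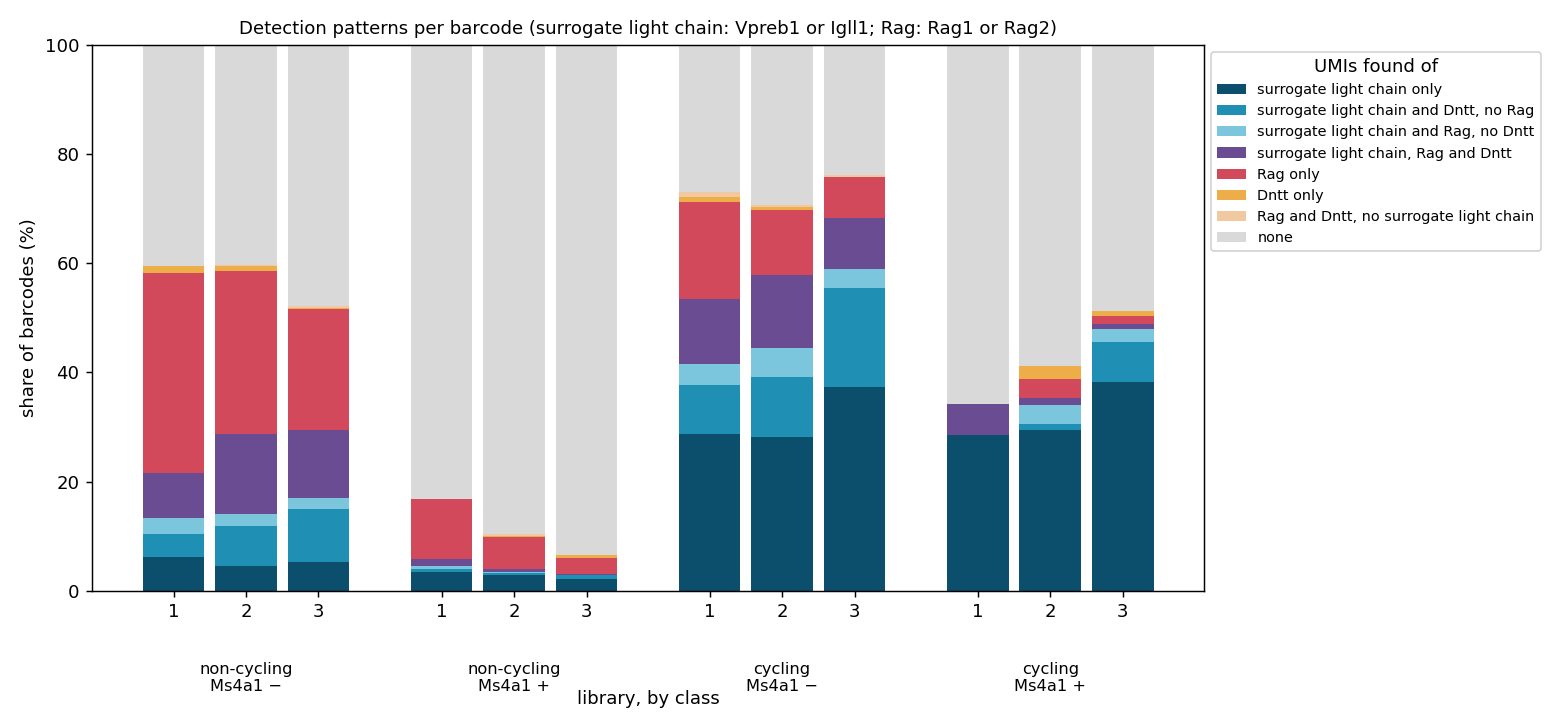
Stacked shares (%) of barcodes by detection pattern of surrogate light chain (Vpreb1 or Igll1), Rag (Rag1 or Rag2) and Dntt, for 4 classes and 3 libraries. All UMIs were used without thinning, and cycling barcodes were deeper than non-cycling ones. Rag alone is the largest pattern with a detected gene in non-cycling Ms4a1-negative barcodes (36.7%, 29.9% and 22.2%), and surrogate light chain alone in cycling ones (28.8%, 28.1% and 37.2%).

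The non-cycling Ms4a1-negative class was therefore divided by a UMI of Vpreb1 or Igll1, a division made after the values were seen and described without tests. It gave 95, 309 and 388 barcodes with and 346, 766 and 933 without, with median depths of 3236, 4102 and 3180.5 UMIs against 2099, 2465.5 and 2003. Rag1 was alike in both, at 287.4, 269.0 and 160.6 CPM with the surrogate light chain and 306.1, 195.2 and 153.1 without. Dntt was higher with it in all 3 libraries, at 928.1, 1529 and 1419 against 5.80, 23.5 and 37.5. Rag2 had 66.0, 46.7 and 37.1 against 25.5, 15.5 and 20.1, and Vpreb3 had 3649, 5487 and 4710 against 3545, 3707 and 3724.

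Other genes separated these barcodes as well. Igkc, the kappa light chain constant region, had 864.5, 758.1 and 838.1 CPM with the surrogate light chain and 5625, 31130 and 5839 without. Iglc1, a lambda constant region, had 11.8, 47.4 and 54.1 against 670.1, 933.0 and 1483, and Il2ra, the interleukin 2 receptor alpha chain, had 28.3, 4.18 and 4.26 against 104.3, 50.7 and 57.6. The high Igkc value of library 2 came with 1481 summed CPM of the 3 plasma cell markers Jchain, Sdc1 and Xbp1 in that class, against 104.9 and 106.8 in libraries 1 and 3. The transcription factors Lef1 and Erg went the other way, Lef1 at 381.6, 395.1 and 340.0 against 35.9, 28.1 and 27.7 and Erg at 35.3, 139.4 and 142.3 against 1.16, 2.51 and 5.80. Irf4, a factor tied to light chain rearrangement, had 77.7, 41.8 and 25.5 against 215.6, 92.2 and 83.4.

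Dntt was the gene of the 7 with most transcripts outside the gate. Outside it, 37, 65 and 70 barcodes had at least 3 Dntt UMIs, a minimum set after the data were seen, against 114, 449 and 546 inside. Flt3, a cytokine receptor of lymphoid progenitors, was found in 75.7%, 76.9% and 71.4% of those outside and in 11.4%, 10.0% and 6.96% of those inside. Cd34 was found in 56.8%, 58.5% and 67.1% against 3.51%, 2.00% and 2.02%. The neutrophil precursor gene Mpo was found in 45.95%, 50.8% and 64.3% outside against 34.2%, 14.25% and 25.8% inside. Siglech, a plasmacytoid dendritic marker, was found in 16.2%, 33.85% and 21.4% against 0%, 0.891% and 0.55%. Il7r, the interleukin 7 receptor, went the other way, at 40.5%, 46.15% and 42.9% outside against 65.8%, 64.4% and 52.75% inside. Ebf1, a transcription factor of early B cells, was found in 27.0%, 21.5% and 30% outside and in 100%, 99.6% and 100% inside. Vpreb1 was found in 18.9%, 9.23% and 12.9% outside, where inside it was found in 97.4%, 98.4% and 98.5%, and Rag1 in 24.3%, 7.69% and 7.14% against 54.4%, 49.9% and 33.1%. Median depths were 9878, 12790 and 10711.5 UMIs outside and 7380.5, 8205 and 8021.5 inside.

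Other genes of the pathway were read from lists of known members, as counts called by edgeR at an adjusted p under 0.05. Values of list genes are log2 fold changes scaled by TMM. Scaled to barcodes, the cycling comparison turned for most lists against an all-gene median of 1.95, with 12 of 13 end-joining genes, 16 of 17 signalling genes, 15 of 16 transcription factors, 8 of 10 early surface genes, 4 of 12 mature B genes and 1 of 6 constant regions higher. On that scale 9600 of all 10643 genes were called higher. With Ms4a1 in cycling barcodes, 9 signalling genes and 6 transcription factors were then higher, against 2 and 1 by TMM, with 2945 of all 10643 genes called higher. The counts by TMM that follow stand beside 27.7% of all genes higher and 29.3% lower with cycling, 7.53% and 7.06% with Ms4a1 in non-cycling barcodes, and 1.88% and 1.89% with Ms4a1 in cycling ones.

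Of 13 partners of the recombinase and end-joining genes, 4 were higher and 5 lower in cycling Ms4a1-negative barcodes (median -0.21, against -0.08 for all genes). Hmgb2 and Hmgb1, DNA-bending cofactors of the recombinase, rose by 2.65 and 1.93 and Xrcc5, of the Ku DNA end-binding complex, by 1.15. The polymerase Polm was at -2.56, Xrcc6, the partner of Xrcc5, at -1.28 and the ligase Lig4 at -1.20. With Ms4a1 in non-cycling barcodes 0 were higher and 4 lower (median -0.18, against 0.03), led by Xrcc6 at -2.40, Hmgb2 at -1.10 and Hmgb1 at -0.95. In cycling barcodes 0 were higher and 3 lower with Ms4a1, namely Xrcc6 at -1.05, Hmgb1 at -0.48 and Hmgb2 at -0.45.

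Of 17 pre-B receptor signalling genes, 1 was higher and 14 lower in cycling Ms4a1-negative barcodes (median -0.94). Plcg2, a phospholipase downstream of the receptor, was at 0.25, and the kinase Syk at -1.38, the transcription factor Spib at -1.88 and the receptor Cd72 at -1.26. With Ms4a1 in non-cycling barcodes 9 were higher and 4 lower (median 0.39). The inhibitory receptor Cd22 rose by 2.78, its phosphatase Ptpn6 by 2.35 and Irf8 by 1.12, while Bach2 was at -0.79, the adaptor Blnk at -0.70 and the kinase subunit Pik3cd at -0.63. In cycling barcodes 2 were higher with Ms4a1, Cd22 at 1.22 and Ptpn6 at 1.05, and 3 lower, Bach2 at -0.98, Fyn at -0.83 and Blnk at -0.79.

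Of 16 B lineage transcription factors, 1 was higher in cycling Ms4a1-negative barcodes, Myc at 0.84, and 12 were lower (median -0.75), led by Ikzf3 at -1.94, Foxo1 at -1.71 and Sox4 at -1.49. With Ms4a1 in non-cycling barcodes 6 rose, led by Bcl6 at 1.37, Bcl11a at 1.36 and Ikzf3 at 1.30, and 6 fell, led by Erg at -3.43, Lef1 at -2.55 and Myb at -1.48. In cycling barcodes Ikzf3 was at 0.99 with Ms4a1, and 5 fell, led by Erg at -1.78, Sox4 at -1.10 and Ebf1 at -1.0.

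Of 10 early progenitor surface genes, 4 were higher and 5 lower in cycling Ms4a1-negative barcodes (median -0.32). Cd34 was at 1.72, the receptor Kit at 0.98 and Spn, which encodes CD43, at 0.77, and Ly6d was at -3.20, Il2ra at -2.79 and Bst1 at -1.42. With Ms4a1 in non-cycling barcodes Ly6d rose by 1.62 and 5 fell, led by the interleukin 7 receptor Il7r at -2.71, Il2ra at -1.88 and Bst1 at -1.67. In cycling barcodes Ly6d was at 2.28 with Ms4a1, and Bst1 at -1.49, Il7r at -1.34 and Cd93 at -0.80 were called lower. Cd34, like the neutrophil precursor genes above, is also expressed by myeloid progenitors, whose part was not tested.

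All 6 immunoglobulin constant region genes were lower in cycling Ms4a1-negative barcodes (median -3.73), led by the lambda genes Iglc1 at -5.99, Iglc3 at -5.52 and Iglc2 at -4.66. With Ms4a1, 5 of 6 rose in non-cycling barcodes (median 1.49) and 3 of 6 in cycling ones (median 3.10), where Iglc1 was at 5.99, Iglc3 at 4.63 and Iglc2 at 4.6. How reads were split among related lambda genes was not tested, so their separate values are uncertain. Of 12 genes of mature B cells 0 were higher and 9 lower with cycling (median -1.84), and 11 rose with Ms4a1 in non-cycling barcodes (median 2.43), led by Fcer2a at 4.48, Cr2 at 4.03 and Cd74 at 3.53. In cycling barcodes 8 of the 12 rose with Ms4a1, led by Fcer2a at 4.71, Cd74 at 3.62 and Ltb at 3.36. Fcer2a stood there at 1.54, 1.14 and 2.85 CPM with Ms4a1 and at 0.0, 0.0656 and 0.0548 without, so its value rests on few UMIs. The Cr2 value also does, with 1.55, 0.785 and 0.772 CPM in the non-cycling Ms4a1-negative sums.

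The genes whose level followed each of the 7 most closely were ranked among 5351 genes by Pearson correlation of log2 CPM, centred within library, over 12 sums. The sums share 3 libraries and 4 classes, so high values are common and are given as a description. Closest to Rag1 were Bcl7a (0.994), Tcf3 (0.994) and Blnk (0.989), and closest to Rag2 were Il7r (0.981), Smarca4 (0.976) and Rnf157 (0.966). Closest to Dntt were Iscu (0.963), Milr1 (0.961) and Csnk1g2 (0.961). Vpreb1 was closest to Vpreb2 (0.991), then Prep (0.982) and Lef1 (0.976), and Vpreb2 to Vpreb1, Arpp21 (0.972) and Prep (0.970). Igll1 was closest to Prep (0.977), Impdh1 (0.976) and Gfra2 (0.972), and Vpreb3 to Ebf1 (0.999), Slamf6 (0.995) and Rere (0.995). Rag1 correlated at 0.976 with Vpreb3, 0.750 with Rag2, 0.520 with Vpreb1 and 0.275 with Igll1 over the same sums.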

How the data were processed

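Counts were deposited by the authors as whole numbers of UMIs per gene and barcode, without normalization, on filtered barcode lists. The submitters' processing notes name Cell Ranger 3.0.2, Seurat 4 and mm10, and the file headers name 3.0.1 for library 1 and 6.0.0 for libraries 2 and 3. The aligner settings and strand are not given in the sources used here. Gene IDs listed in all 3 libraries (30406, with at least 99.6% of UMIs) were used, with GENCODE vM21 positions.

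Kept barcodes had 500 genes or more and no more than 15% mitochondrial UMIs, and doublets called by Scrublet in scanpy 1.11.5 at its own threshold were removed (1.78%, 5.47% and 4.43%). UMIs were summed per library and class, giving 12 sums from 453189 to 18233530 UMIs. All were fitted together with edgeR 4.0.16 in R 4.3.3 (quasi-likelihood test, TMM, filterByExpr, library as block). The block is used because each library is a single pool, and same-library sums deviated together (correlations of 0.273 to 0.670 in all 18 pairs). P-values were adjusted by Benjamini-Hochberg over 10643 genes and called under 0.05, and the SE is the absolute log2 fold change over the square root of F. Tested on simulated counts of 10405 genes for cycling against non-cycling barcodes, the fit recovered 41.8% of changes of 1 and 100% of changes of 2 on the log2 scale, and 1.42% of its calls were unchanged genes. The simulation changed 98 genes at each size and used a preset spread. In the data 57.0% of genes were called, so these rates describe the simulation and are not error rates of the reported comparison.

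Shares carry exact 95% Clopper-Pearson intervals, which cover counting error only and were at most 9.47, 10.9, 10.3 and 33.1 percentage points wide in the non-cycling Ms4a1-negative, cycling Ms4a1-negative, non-cycling Ms4a1-positive and cycling Ms4a1-positive classes. All 7 genes are named, as are at most 3 genes each way per list with the largest changes among those called, and the 3 genes most like each (mean of at least 20 counts per 1000000 UMIs, CPM). Members and lists were chosen with earlier results of these data known. The scaling to total UMIs or barcodes, the removal of shared barcodes or of barcodes rich in other-lineage UMIs, the division by Vpreb1 or Igll1, the Dntt minimum, the detection patterns and the motifs were chosen after the data were seen. Python 3.11.15, numpy 2.4.6, scipy 1.17.1, pandas 2.3.3, biopython 1.88, matplotlib 3.10.9 and DESeq2 1.42.0 (an alternative) were also used. Promoter windows are from RefSeq, and all 7 genes matched. The values of 1 gene are not reported here.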

Additional observations from a re-analysis of the deposited data

Results flagged for a closer look

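The fall of the surrogate light chain genes with Ms4a1 differed between non-cycling and cycling barcodes, by an interaction term in edgeR's quasi-likelihood test (Benjamini-Hochberg). The difference on the log2 scale was 2.69 for Vpreb1, 2.82 for Vpreb2 and 3.06 for Igll1. In all 3 libraries each gene differed less between Ms4a1 classes in cycling than in non-cycling barcodes. The cycling Ms4a1-positive class held 35, 85 and 123 barcodes, the fewest of the 4, and none of the 3 calls held without library 3. With no replicate block only the Vpreb1 call held (adjusted p = 0.0579 for Vpreb2 and 0.117 for Igll1), and after thinning Vpreb2 was at -3.45 (adjusted p = 0.891), where a sum was at 0.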

How the results depend on the processing

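Of 588 values of the 7 genes under alternatives, 533 kept their direction and their side of the threshold, 13 lost a call, 30 gained one and 12 turned. Genes called in the cycling comparison numbered 6067, and 3623 with no replicate block, 9684 scaled to barcodes and 3224 thinned (4122 to 5631 leaving out a library). For Ms4a1 in non-cycling barcodes they numbered 1552, and 544 with no replicate block and 1252, 850 and 602 without library 1, 2 or 3. For Ms4a1 in cycling barcodes they numbered 401, and 986 with no filter on low counts, 88 with no replicate block, 3040 scaled to barcodes, 903 with at least 2 UMIs of each Cd79 gene, 705 without barcodes with markers of another lineage, 649 with at least 1 cycling gene, 703 without barcodes rich in other-lineage UMIs and 182, 129 and 209 without library 1, 2 or 3. For the interaction they numbered 115, and 223 with DESeq2's Wald test, 389 with no filter, 4 with no replicate block, 2561 scaled to barcodes, 182 with at least 2 UMIs of each Cd79 gene, 75 without markers of another lineage, 210 with at least 3 cycling genes, 226 without barcodes rich in other-lineage UMIs, 38 thinned and 48, 42 and 4 without library 1, 2 or 3.

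Scaled to barcodes, the cycling values were 0.84 for Rag2, 1.10 for Dntt, 0.89 for Vpreb1, 0.81 for Vpreb2, 0.74 for Vpreb3 and 1.51 for Igll1. The interaction turned for Rag1 scaled to barcodes (0.15), with at least 1000 genes (0.03) and with at least 1 cycling gene (0.49), for Vpreb3 scaled to barcodes (0.37), and after thinning for Rag2 (-3.13) and Vpreb2 (-3.45), where a sum was at 0. The cause was not tested in the other cases.

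With no replicate block the interaction was 2.79 for Vpreb2 (adjusted p = 0.0579) and 3.05 for Igll1 (adjusted p = 0.117), and the Rag1 value for Ms4a1 in cycling barcodes was -3.45 (adjusted p = 0.0771). The block changed no other call of the 7 genes. Scaled to total UMIs, 35.6% of calls in the cycling comparison were higher against 48.5%, the all-gene median was -0.27 in place of -0.08 and Igll1 was called at -0.71. That scaling gave 36.7% higher against 51.6% for Ms4a1 in non-cycling barcodes and 75% against 63.5% for the interaction, and no filter gave 26.6% against 49.9% for Ms4a1 in cycling ones. For Ms4a1 in cycling barcodes, Vpreb1 was called under 4 alternatives, Vpreb2 under 8 and Igll1 under 4. Shares moved by more than 1 SD most often after thinning (22 of 28) and without barcodes with markers of another lineage (15 of 28). The thinned shares counted here use classes set again from the thinned counts. Sums of few barcodes limit the cycling Ms4a1-positive class. It had a sum in only 2 libraries after thinning and also without barcodes with markers of another lineage. Library 1 then had 9 and 5 barcodes, under the minimum of 10 for a sum.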
